A study of Mus musculus with 10 samples.

Results

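The 10 genes described here belong to the BCL2 family, which sets whether a cell under stress survives or dies. They are Bcl2, Bcl2l1, Mcl1, Bcl2a1a, Bcl2a1b and Bcl2a1d, which encode survival proteins, Pmaip1, Bbc3 and Bcl2l11, which encode BH3-only death proteins, and Bax, which encodes a pore-forming effector. They were chosen by name, as the rows of the count table that carry these symbols, 10 of the 55385 genes of the table. All 10 had enough counts to be tested. RNA sequencing was done on 10 libraries from a mouse tumour line that derives from an ovarian tumour mutated in Arid1a and Pik3ca, written APV245 in the sample labels and APC245 in the design text. An shRNA against Il6, IL6 shRNA1, is the label of 5 libraries, with the genotype IL6 knockdown. A non-mammalian control shRNA in the lentiviral vector pLKO.1-puro is the label of the other 5, with the genotype WT (control shRNA). The Arid1a and Pik3ca mutations of the line are thus shared by both groups, no library was treated, 1 hairpin was used, and the sources used here do not say whether the cells were clones. The sample labels speak of cells kept in DMEM, while the design text speaks of tumours under the skin. The question put by the comparison is how these genes respond to IL6 depletion.

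Proteins of the BCL2 family meet at the outer membrane of mitochondria. BAX and its relative BAK open pores there that let cytochrome c out and start the caspases. Survival members such as BCL2, BCL-XL, MCL1 and A1 hold the pore formers in check, and BH3-only proteins such as NOXA, PUMA and BIM bind and disable the survival members. In many cells IL-6 acts through STAT3, whose known targets include Mcl1 and Bcl2l1, so this family is one through which the cytokine is known to favour survival.

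Libraries labelled IL6 shRNA1 held 17905397 to 19934278 counts and control libraries 18224751 to 22682346. Il6 mRNA, the target of the hairpin, was not lower: it had 1.07, 1.83, 2.18, 1.80 and 1.75 CPM (counts scaled to library size) in IL6 shRNA1 libraries 1 to 5, against 1.61, 0.438, 2.06, 1.34 and 0.83 CPM in control libraries, and the groups overlapped (log2 fold change 0.44 ± 0.36 SE, edgeR adjusted p = 0.436). These values rest on only 9 to 48 counts per library. With leukocyte marker RNA as a covariate, described below, the log2 fold change was -0.51 ± 0.32 (SE, edgeR adjusted p = 0.581). Whether Il6 fell in the tumour cells themselves cannot be read from whole libraries. The groups are therefore named by their labels, and a fold change sets the label IL6 shRNA1 over control. On the first principal component IL6 shRNA1 library 5 lay at 65.2 and control libraries 2 and 5 at -64.9 each, farther out than the other 7, and IL6 shRNA1 library 1 lay at -21.4, on the side of most control libraries. Macrophage markers were higher in the libraries labelled IL6 shRNA1 for 7 of 8 genes tested, with summed levels of 1614 to 2719 CPM against 731 to 1644 CPM in control. Of the other leukocyte lists, 4 of 7 pan-leukocyte genes were higher (1754 to 4048 CPM in sum, against 548 to 1963 CPM in control) and 1 of 5 dendritic cell genes, Itgax (82.4 to 166 CPM in sum, against 26.8 to 74.3 CPM). None was called of 4 neutrophil genes (39.7 to 64.1 CPM in sum, against 18.4 to 63.6 CPM), 5 T and NK cell genes (20.6 to 46.3 CPM, against 9.35 to 28.6 CPM) and 1 B cell gene tested. Of the defining markers, Ly6g had at most 1 count in any library, and Cd74 was the most abundant at 2238 ± 769 CPM against 858 ± 433 CPM in control (SD, n = 5 each). Of 6 fibroblast and pericyte genes, 2 were lower, Dcn and Lum, and of 6 endothelial genes 0 were called. The endothelial genes summed to 176 to 333 CPM under IL6 shRNA1 and 142 to 186 CPM in control. Macrophage and endothelial marker RNA was thus present in all 10 libraries, and its source was not tested. The levels given here are those of whole libraries and cannot be assigned to the tumour cells. Among the markers of an ovarian epithelial tumour, 0 of 5 tested were called, Krt8 averaged 71.0 CPM against 53.002 CPM in control and Wt1 83.0 CPM under IL6 shRNA1 against 90.5 CPM in control, Epcam was at 1.66 to 7.89 CPM over all libraries, and Pax8 was at or near 0 in every library. In bulk RNA of this kind, fewer cells of a type and less RNA per cell cannot be told apart.

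In the libraries labelled IL6 shRNA1, 4 of the 10 genes were higher: Bcl2, Bcl2a1a, Bcl2a1b and Pmaip1. Thus 3 survival genes and 1 death gene rose, with log2 fold changes between 0.91 and 1.13. No gene fell, and 6 were not called. All 10 fold changes were positive, with a median of 0.54 on the log2 scale against -0.01 over all genes tested. Of all genes tested, 5.62% were higher, 6.16% lower and 11.8% called in either direction, at an adjusted p under 0.05 in edgeR's quasi-likelihood test with Benjamini-Hochberg adjustment over 15064 genes. Without the 3 libraries farthest out, 2 of the 10 were called, Bcl2 and Pmaip1, and 212 of all 15373 genes tested.

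**Figure D1:**
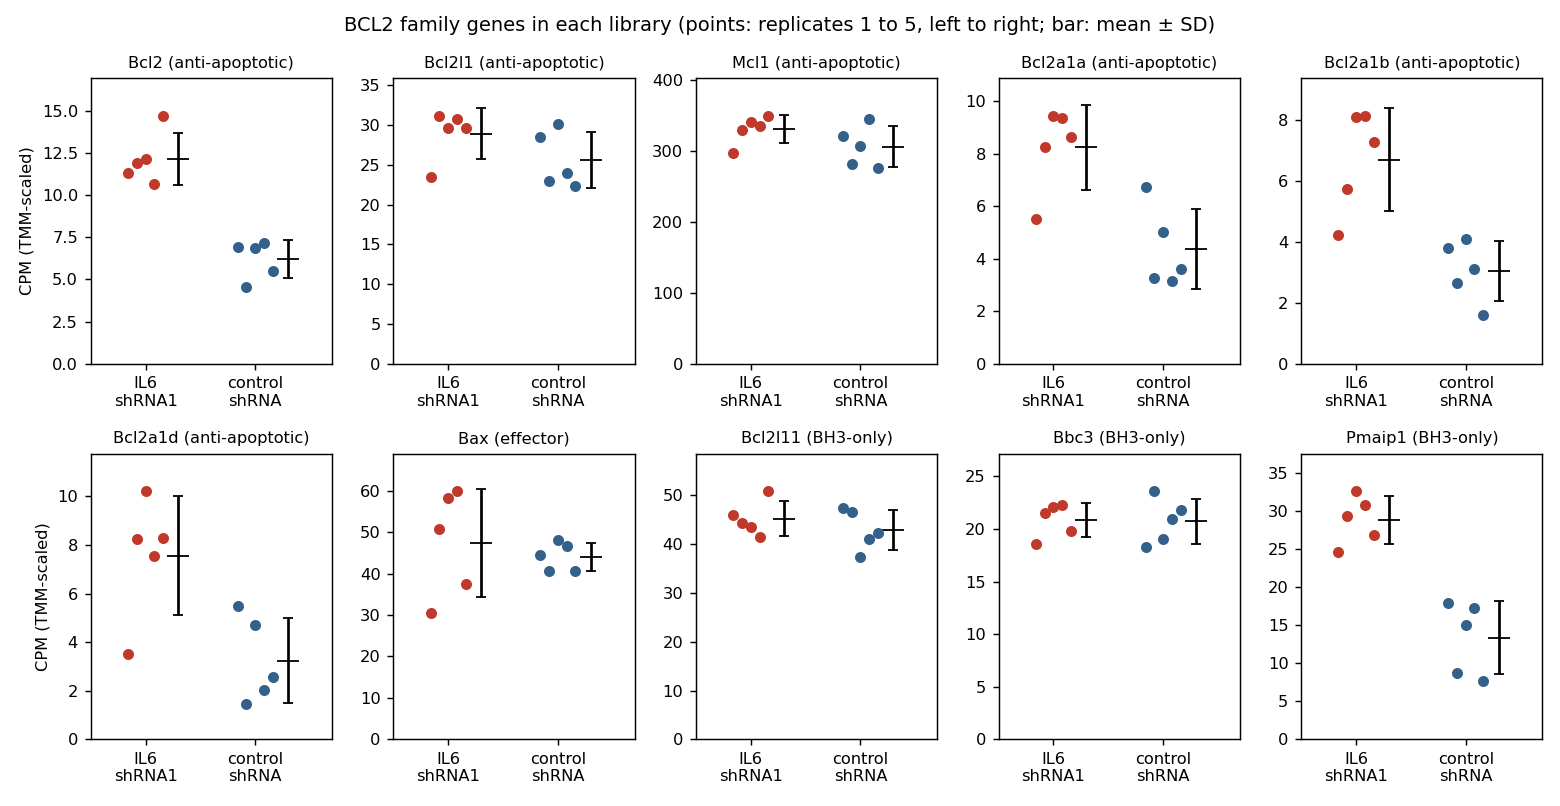
Levels of the 10 genes in each library, in CPM after TMM scaling, with a separate linear axis from 0 for each gene; red points are libraries labelled IL6 shRNA1, blue points control libraries, and bars give the mean ± SD of 5 libraries. The groups are apart for Bcl2, Bcl2a1b and Pmaip1, and overlap for the other genes.

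Per length, the survival side of the family was dominated by 1 gene. The deposited FPKM values, which divide counts by gene length and library total, put Mcl1 first with a mean of 93.2 FPKM over the 10 libraries, from 74.7 to 102.7. Bax came next at 29.2 FPKM, from 18.4 to 39.8, without overlap with Mcl1 above or Bbc3 below. Then followed Bbc3 at 9.77, Pmaip1 at 7.76, Bcl2a1a at 7.74, Bcl2a1d at 6.33, Bcl2a1b at 6.001, Bcl2l1 at 5.97 and Bcl2l11 at 5.47 FPKM, and each of these overlapped with the next of them in that order. The Bcl2a1 copies share much of their sequence. Their places in this order depend on how shared reads were counted, which is not given. Bcl2 was last at 1.00 FPKM, from 0.469 to 1.56, below Bcl2l11 in each of the 10 libraries. The gene of the family's founding member was thus the least abundant of the 10 in these libraries, also where it was higher.

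**Figure D2:**
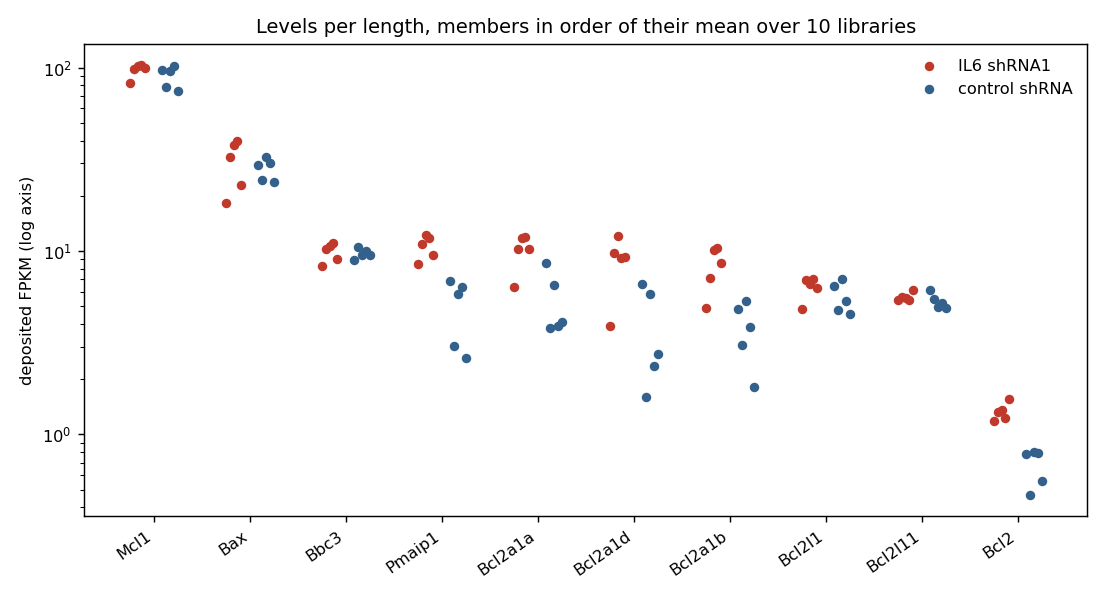
Deposited FPKM of each gene in each library on a log axis, genes in order of their mean over the 10 libraries; red points are libraries labelled IL6 shRNA1, to the left of blue points for control libraries. Mcl1 lies above Bax and Bax above all others, the middle 7 overlap, and Bcl2 lies lowest.

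Mcl1 encodes a short-lived survival protein that many cells need to stay alive. It had 297, 329, 341, 335 and 349 CPM under the label IL6 shRNA1, against 321, 281, 306, 345 and 276 CPM in control libraries. The groups overlapped over most of their range, the log2 fold change was 0.11 ± 0.08 (SE), and its 95% interval from -0.06 to 0.28 allowed at most a 1.21-fold rise (adjusted p = 0.351). Mcl1 made up 51.9% of the summed FPKM of the 10 genes in the libraries labelled IL6 shRNA1 and 57.2% in control libraries. Bcl2l1, the gene of BCL-XL, had 23.4, 31.2, 29.6, 30.8 and 29.6 CPM under the label IL6 shRNA1, against 28.4, 22.98, 30.2, 24.0 and 22.4 CPM in control libraries. Here 4 of the 5 libraries labelled IL6 shRNA1 lay at the height of the 2 highest control libraries, and the first lay with the low ones. The log2 fold change of Bcl2l1 was 0.18 ± 0.11 (SE; 95% interval -0.06 to 0.42, adjusted p = 0.298). Neither of these STAT3 targets was called.

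Bcl2 (ENSMUSG00000057329.7, GRCm38 chromosome 1, 106538178 to 106714274, minus strand), the survival gene that gave the family its name, rose. It had 11.3, 11.9, 12.1, 10.7 and 14.7 CPM under the label IL6 shRNA1, against 6.92, 4.53, 6.87, 7.14 and 5.52 CPM in control libraries. Every library labelled IL6 shRNA1 lay above every control library, and 10.9% of all genes tested had groups that did not overlap, in either direction. The log2 fold change was 0.97 ± 0.15 (SE), a 1.96-fold difference with a 95% interval of 1.56 to 2.46 (edgeR adjusted p = 0.00402; exact two-sided permutation p = 0.0079, the smallest that 5 against 5 can give). The call held in each omission of a single library (adjusted p from 0.00506 to 0.0135) and without the 3 libraries farthest out (log2 fold change 0.72, adjusted p = 0.0308). The counts behind these values ran from 93 to 278 per library.

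Bcl2 lies on a chromosome whose genes as a whole were higher in the libraries labelled IL6 shRNA1. Of 917 tested genes of chromosome 1, 268 were higher and 1 was lower, which is 29.2% higher, and their median log2 fold change was 0.32. In every library labelled IL6 shRNA1 the median of chromosome 1, centred on each gene's mean over the libraries, lay between 0.13 and 0.23, against -0.16 to -0.14 in control libraries. Near Bcl2, 3 of the 10 other genes tested within 1 Mb were higher, with a median log2 fold change of 0.32. They were Zcchc2 (0.38), Phlpp1 (0.57), the gene of an AKT phosphatase, and Vps4b (0.26), the gene of an ATPase of the ESCRT machinery. The serpin genes Serpinb7 (1.55 ± 0.46 SE, adjusted p = 0.0548) and Serpinb2 (1.595 ± 0.722 SE, adjusted p = 0.163) had larger fold changes that did not pass, and Kdsr, the nearest gene, stood at 0.24 (adjusted p = 0.0721). Within 20 Mb, 31 of 108 other genes were higher, 0 were lower at the same edgeR threshold, and the median was again 0.32 (log2). Some of these called genes had a larger log2 fold change than Bcl2. They were Gm7967 (1.59), Twist2 (1.51), Erfe (1.24), Ramp1 (1.19), Gpr39 (1.14), Kif1a (1.12) and Tmem37 (1.01).

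With the median of chromosome 1 taken off in each library, Bcl2 still differed. The remaining log2 level was 0.17, 0.31, 0.33, 0.18 and 0.60 in the libraries labelled IL6 shRNA1, against -0.17, -0.76, -0.17, -0.12 and -0.47 in control libraries. No value of one group reached the other, and the means of 0.32 ± 0.17 for IL6 shRNA1 and -0.34 ± 0.27 for control (SD, n = 5 each) differed by 0.65 (exact two-sided permutation p = 0.0079). Without IL6 shRNA1 library 5 and control libraries 2 and 5, the 3 farthest out, the difference was 0.41 (exact two-sided permutation p = 0.0286, the smallest that 4 against 3 can give). The difference of Bcl2 thus went beyond the median of its chromosome by that amount, and what share of it belongs to the chromosome was not tested further. Other genes of chromosome 1 also lay beyond that median, and the share that did so by as much as Bcl2 was not counted.

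**Figure D3:**
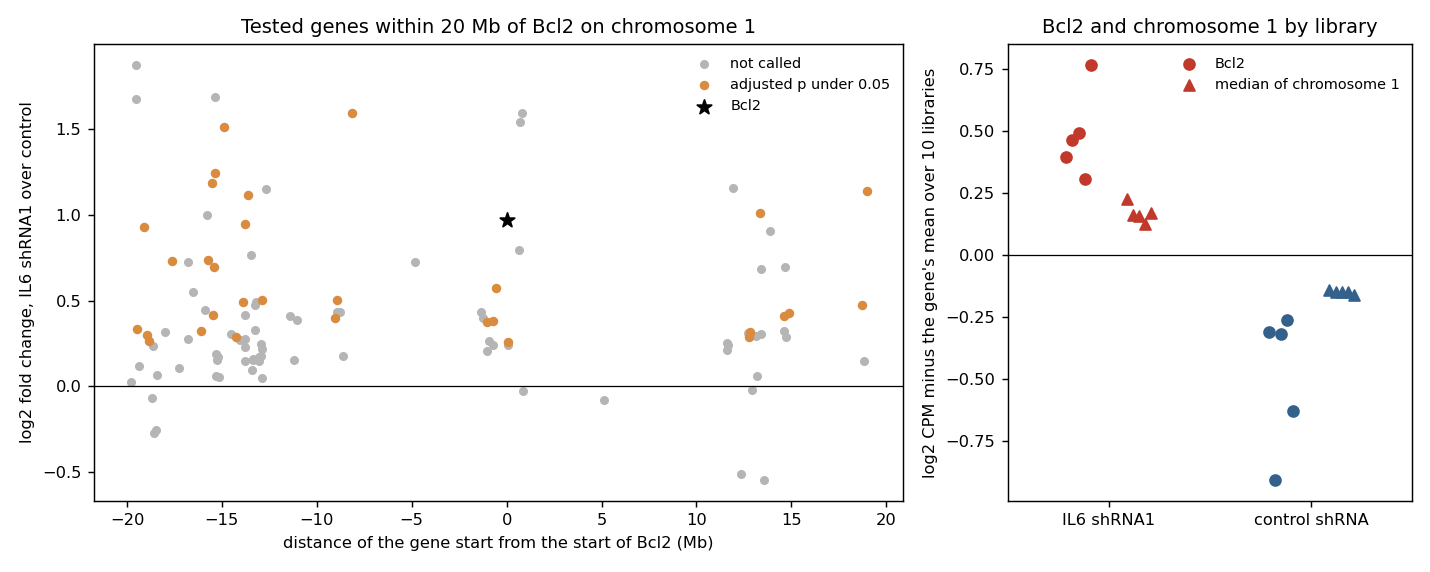
Left, log2 fold change of the libraries labelled IL6 shRNA1 over control for every tested gene within 20 Mb of Bcl2, against the distance of its start from that of Bcl2 in Mb; orange genes passed an adjusted p of 0.05, grey ones did not, and the star is Bcl2 at 0.97. Right, centred log2 CPM of Bcl2 (circles) and the median of chromosome 1 (triangles) in each library, red for IL6 shRNA1 and blue for control shRNA; Bcl2 is farther from 0 than its chromosome in all 10 libraries.

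Bcl2a1a, Bcl2a1b and Bcl2a1d are near-identical mouse copies of the gene of A1, a survival protein that NF-kB is known to induce and that is best known from blood cells. They lie on chromosome 9 of GRCm38, Bcl2a1d at 88723285 to 88731914 on the minus strand, Bcl2a1a at 88956900 to 88962419 and Bcl2a1b at 89199209 to 89207827 on the plus strand. The first 150 of their 516 coding bases are given because they hold most of what tells the copies apart; capitals mark the 7 positions there at which the 3 copies are not all the same, of 12 in the whole coding sequence (GENCODE M21 transcripts).
Bcl2a1a: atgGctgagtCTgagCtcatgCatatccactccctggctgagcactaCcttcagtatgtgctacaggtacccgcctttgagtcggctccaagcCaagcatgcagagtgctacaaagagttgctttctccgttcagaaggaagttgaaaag
Bcl2a1b: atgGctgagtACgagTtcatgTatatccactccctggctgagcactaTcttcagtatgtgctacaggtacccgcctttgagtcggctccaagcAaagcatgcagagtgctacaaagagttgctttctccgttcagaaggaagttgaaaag
Bcl2a1d: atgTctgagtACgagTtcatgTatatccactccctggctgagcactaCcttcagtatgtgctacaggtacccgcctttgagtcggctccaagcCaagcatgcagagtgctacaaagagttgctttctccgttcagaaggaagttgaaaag
Over the coding sequence Bcl2a1a and Bcl2a1b were 97.9% identical, Bcl2a1a and Bcl2a1d 98.6%, and Bcl2a1b and Bcl2a1d 98.8%. Of all stretches of 100 bases, 43.5% of those in the Bcl2a1a transcript, 31.1% of those in Bcl2a1b and 54.7% of those in Bcl2a1d occur word for word in another copy. A read of that length from such a stretch fits more than 1 copy, and the handling of such reads is not given in the sources used here. Each single value is therefore uncertain, and the sum of the 3 is given beside it. If such reads were left out, the sum and the FPKM ratios that include these copies are too low as well. The likeness reaches upstream: the 180 bases just before the annotated transcript starts of Bcl2a1a and Bcl2a1b (RefSeq promoter table, GRCm38.p6, plus strand, chr9:88956720-88956899 and chr9:89199029-89199208) differ at 1 base, in capitals.
Bcl2a1a upstream: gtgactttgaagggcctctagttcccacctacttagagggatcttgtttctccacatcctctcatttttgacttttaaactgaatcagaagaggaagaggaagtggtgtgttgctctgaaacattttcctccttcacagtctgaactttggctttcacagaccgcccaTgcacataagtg
Bcl2a1b upstream: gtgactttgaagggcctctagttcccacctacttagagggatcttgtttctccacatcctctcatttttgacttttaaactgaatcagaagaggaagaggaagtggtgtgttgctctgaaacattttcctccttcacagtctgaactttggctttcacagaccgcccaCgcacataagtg

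Bcl2a1a had 5.50, 8.25, 9.45, 9.35 and 8.63 CPM under the label IL6 shRNA1, against 6.75, 3.26, 5.03, 3.16 and 3.62 CPM in control libraries. IL6 shRNA1 library 1 was the low one of its group, control libraries 1 and 3 were the high ones of theirs, and the groups overlapped through library 1 of each. Bcl2a1a rose with a log2 fold change of 0.91 ± 0.24 (SE; adjusted p = 0.0321). Bcl2a1b had 4.22, 5.73, 8.08, 8.13 and 7.25 CPM under the label IL6 shRNA1, against 3.78, 2.63, 4.08, 3.10 and 1.602 CPM in control libraries. Its groups did not overlap in CPM, by a margin of 4.22 against 4.08, and did overlap in deposited FPKM. Bcl2a1b rose with a log2 fold change of 1.13 ± 0.26 (SE; adjusted p = 0.0219). Bcl2a1d had 3.53, 8.25, 10.2, 7.54 and 8.31 CPM under the label IL6 shRNA1, against 5.47, 1.46, 4.72, 2.02 and 2.55 CPM in control libraries. Its log2 fold change was the highest of the 3 copies at 1.21 ± 0.38 (SE), and with the wider spread it did not pass (adjusted p = 0.0633).

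Summed over the 3 copies, A1 mRNA rose. The sum was 13.3, 22.2, 27.7, 25.0 and 24.2 CPM under the label IL6 shRNA1, against 15.996, 7.35, 13.8, 8.28 and 7.77 CPM in control libraries, with means of 22.5 ± 5.53 CPM for IL6 shRNA1 and 10.6 ± 3.98 CPM for control (SD, n = 5 each). On the log2 scale the sum was higher by 1.07 ± 0.26 (SE; 95% interval 0.50 to 1.65, adjusted p = 0.0274; exact two-sided permutation p = 0.024). IL6 shRNA1 library 1 lay among the control libraries and the other 4 above all of them. The sum lost its call in 7 of the 10 omissions of a single library, with a log2 fold change of 0.979 to 1.091 in those 7. All genes called numbered 864 to 1526 in the same 7 omissions, against 1775 with all libraries. When IL6 shRNA1 library 2, 3, 4 or 5 was left out, the adjusted p of the sum was 0.0587, 0.0633, 0.0569 or 0.0611, and when control library 2, 4 or 5 was left out, 0.0637, 0.0546 or 0.0686. For Bcl2a1a the same 7 omissions gave an adjusted p of 0.0681, 0.0705, 0.067 and 0.0665, then 0.0767, 0.0603 and 0.0783, with a log2 fold change of 0.815 to 0.924. Bcl2a1b lost its call without IL6 shRNA1 library 3 (0.0539) or 4 (0.0506) or control library 2 (0.0572), and Bcl2a1d gained one without library 1 of either group (0.0253 for IL6 shRNA1, 0.0334 for control). Without the 3 libraries farthest out the adjusted p was 0.226 for the sum, 0.26 for Bcl2a1a and 0.156 for Bcl2a1b.

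The 4 libraries with the highest A1 sums were also the 4 with the most leukocyte marker RNA. A leukocyte score, the mean centred log2 CPM of 30 tested marker genes of leukocytes, macrophages, neutrophils, dendritic cells, T and NK cells and B cells, was -0.19, 0.55, 0.68, 0.52 and 0.77 in the libraries labelled IL6 shRNA1, against 0.29, -1.38, -0.04, -0.55 and -0.65 in control libraries. In IL6 shRNA1 library 1, with its score below those of control libraries 1 and 3, the A1 sum was 13.3 CPM against 15.996 and 13.8 CPM in these controls. Bcl2 stood at 11.3 CPM in that library against 6.92 and 6.87 CPM in the same 2 controls, and Pmaip1 at 24.5 against 17.95 and 15.03 CPM. These 3 libraries were picked after their values were seen, and the values are a description with no test. With the score as a covariate in the edgeR fit, the log2 fold change of the A1 sum was 0.345 ± 0.173 (SE, adjusted p = 0.459), that of Bcl2 0.67 ± 0.17 (adjusted p = 0.11) and that of Pmaip1 0.64 ± 0.23 (adjusted p = 0.275). None of the 10 genes passed in that fit by edgeR, and 2 had an unadjusted p under 0.05. Of all 15064 genes tested, 91 passed in it. The score itself was higher in the libraries labelled IL6 shRNA1 and so shares variance with the group, and a lost call does not show that leukocytes account for a gene.

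**Figure D4:**
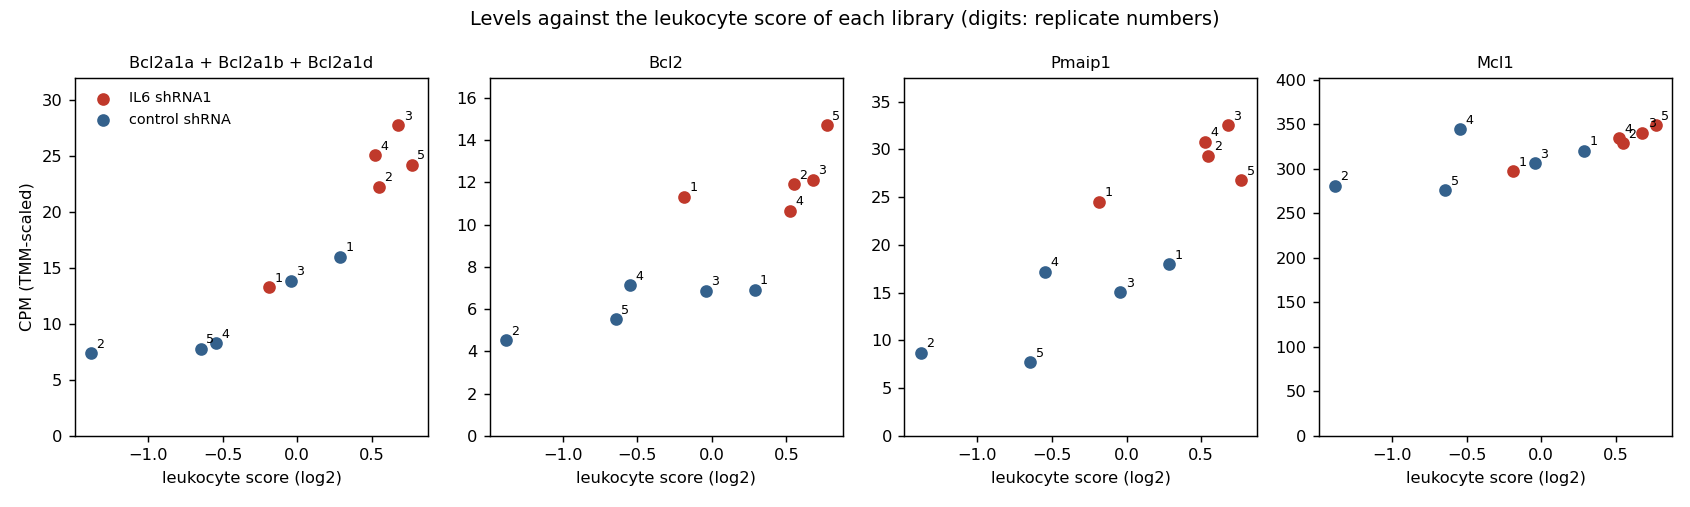
Level in CPM (TMM-scaled, linear axis from 0) of the summed Bcl2a1 copies, Bcl2, Pmaip1 and Mcl1 against the leukocyte score of each library (log2 units); red points are libraries labelled IL6 shRNA1, blue points control libraries, and digits are replicate numbers. The A1 sum of IL6 shRNA1 library 1 lies at 13.3 CPM among the control libraries, and its Bcl2 and Pmaip1 levels lie above all control libraries. Its Pmaip1 level is the lowest of its label. Control libraries 2 and 5, which have the lowest scores, also have the lowest Bcl2 and Pmaip1 levels.

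Among the BH3-only genes Pmaip1 alone passed. Pmaip1 (ENSMUSG00000024521.8, chromosome 18) encodes NOXA, a p53 and stress target that binds mainly MCL1. It had 24.5, 29.3, 32.5, 30.8 and 26.8 CPM under the label IL6 shRNA1, against 17.95, 8.72, 15.03, 17.2 and 7.71 CPM in control libraries. Every library labelled IL6 shRNA1 lay above every control library, and control libraries 2 and 5, both far out on the first principal component, were the lowest. The log2 fold change was 1.11 ± 0.23 (SE), a 2.16-fold difference with a 95% interval of 1.52 to 3.05 (edgeR adjusted p = 0.0143; exact two-sided permutation p = 0.0079). The call held in each omission of a single library (adjusted p from 0.0125 to 0.0361), and without the 3 libraries farthest out (log2 fold change 0.81, adjusted p = 0.0261). The tested genes of chromosome 18 had a median log2 fold change of -0.02.

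Bbc3, the gene of PUMA, another p53 target, had 18.5, 21.5, 22.1, 22.2 and 19.8 CPM under the label IL6 shRNA1, against 18.3, 23.6, 19.03, 20.9 and 21.8 CPM in control libraries. The 2 groups overlapped over most of their range, with a log2 fold change of 0.01 ± 0.09 (SE; 95% interval -0.19 to 0.21, adjusted p = 0.958). Bcl2l11, the gene of BIM, which FOXO factors are known to induce, lay between 41.4 and 50.8 CPM in the libraries labelled IL6 shRNA1 and between 37.2 and 47.4 CPM in control libraries, with a log2 fold change of 0.07 ± 0.08 (SE; 95% interval -0.11 to 0.26, adjusted p = 0.575). Bax, the effector, had 30.5, 50.7, 58.3, 59.8 and 37.4 CPM under the label IL6 shRNA1, against 44.4, 40.7, 48.1, 46.6 and 40.5 CPM in control libraries. The means of Bax, 47.3 ± 12.9 CPM for IL6 shRNA1 and 44.0 ± 3.42 CPM for control (SD, n = 5 each), were close (log2 fold change 0.10 ± 0.17 SE, adjusted p = 0.718). Its libraries labelled IL6 shRNA1 spread to both sides of the control libraries, 1 and 5 below them and 2, 3 and 4 above.

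**Figure D5:**
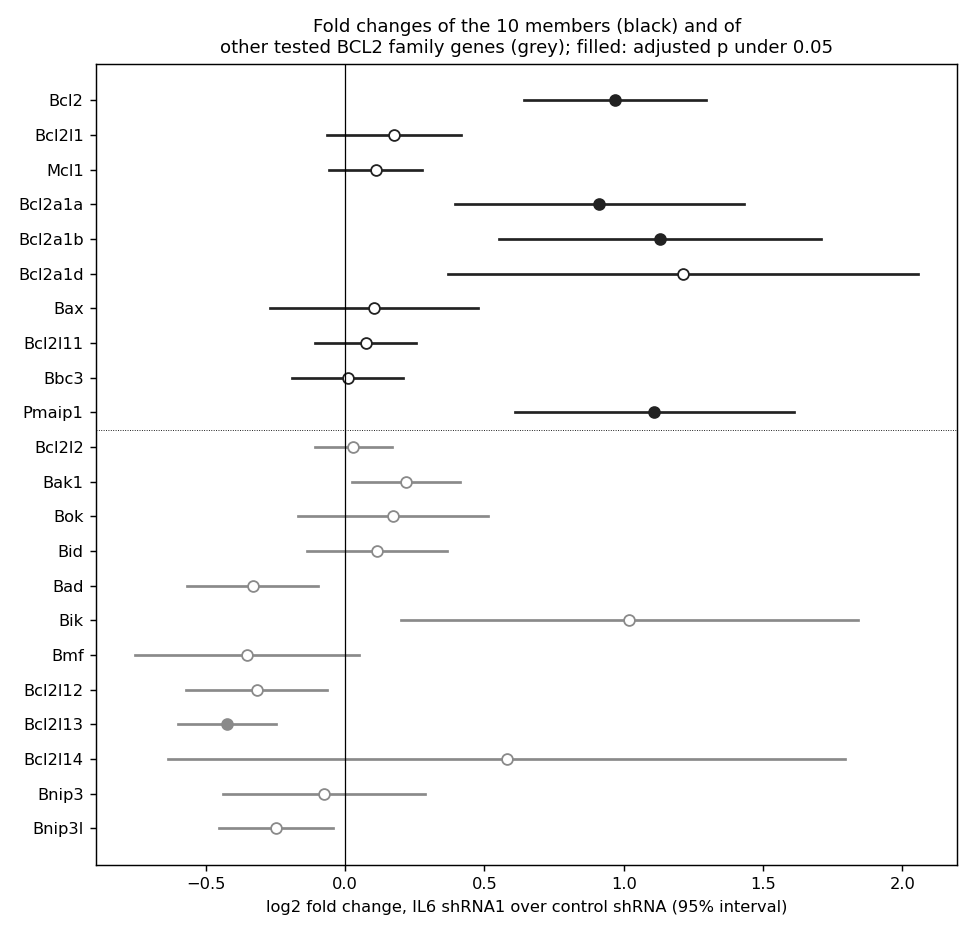
Log2 fold change, libraries labelled IL6 shRNA1 over control, with its 95% interval, for the 10 genes (black, above the dotted line) and for 12 other tested genes of the family (grey, below it); filled points passed an adjusted p of 0.05. Filled points are Bcl2, Bcl2a1a, Bcl2a1b and Pmaip1 on the higher side and Bcl2l13 on the lower side.

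Ratios of deposited FPKM show how survival and death genes stood to each other within a library, and are given with no test. Mcl1 stood at 9.22 ± 0.83 times its antagonist Pmaip1 in the libraries labelled IL6 shRNA1, from 8.37 to 10.4, and at 20.2 ± 6.50 times in control libraries, from 14.3 to 28.6 (SD, n = 5 each). The Bcl2 to Bax ratio ran from 0.0307 to 0.0677 in the libraries labelled IL6 shRNA1 and from 0.0192 to 0.0268 in control libraries. Neither ratio overlapped between the groups. They moved in opposite senses, the first with less survival mRNA per death mRNA in the libraries labelled IL6 shRNA1, the second with more. Each ratio sets a called gene, Pmaip1 or Bcl2, against an uncalled one, Mcl1 or Bax. Its separation and its sense thus largely follow from the calls already given. The Bcl2l1 to Bcl2l11 ratio was 1.13 ± 0.17 in the libraries labelled IL6 shRNA1 and 1.06 ± 0.21 in control libraries (SD, n = 5 each). The 6 survival genes summed to 5.05 ± 0.29 times the 3 BH3-only genes in the libraries labelled IL6 shRNA1 and 5.43 ± 0.44 times in control libraries, with overlap in both. Pmaip1 made up 40.5% of the BH3-only sum in the libraries labelled IL6 shRNA1 and 24.2% in control libraries.

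Of the rest of the family, 16 genes were listed, 12 were tested, 0 were higher and 1 was lower. Bcl2l13, the gene of a mitochondrial member that acts in mitophagy, averaged 71.7 ± 5.29 CPM under IL6 shRNA1 and 96.1 ± 9.21 CPM in control libraries (SD, n = 5 each; log2 fold change -0.42, adjusted p = 0.00947). It lies on chromosome 6, where 216 of 797 tested genes were lower and the median log2 fold change was -0.23. In the 3 lists with no call, the genes with the smallest p were Bcl2l2, the survival gene of BCL-W (40.3 CPM under IL6 shRNA1 against 39.5 CPM in control, adjusted p = 0.791), Bak1, the effector that pairs with BAX (110 CPM under IL6 shRNA1 against 94.7 CPM in control, adjusted p = 0.124), and Bad, a BH3-only gene (28.8 CPM under IL6 shRNA1 against 36.2 CPM in control, adjusted p = 0.0662). Bcl2l10 and the BH3-only gene Hrk had 0 counts in all 10 libraries, and Bcl2a1c, the remaining Bcl2a1 locus, had 1 count in 1 library.

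Around the family, 12 lists of 89 genes in all held 81 tested genes, of which 10 were higher and 6 lower, with a median log2 fold change of 0.10. Among all 15064 genes tested, 5.62% were higher, 6.16% lower and 11.8% called in either direction. Several of the called genes lie on chromosomes 1, 6 and 19, whose medians were 0.32, -0.23 and -0.12 (log2 fold change). Without the 3 libraries farthest out 1 of the 81 was called, Btg2, and 212 of all 15373 genes tested. Leaving out 1 library gave 5 to 24 calls: 5 without IL6 shRNA1 library 2 or control library 2 or 5, 8, 9 and 10 without IL6 shRNA1 libraries 5, 3 and 4, and 24 without IL6 shRNA1 library 1. Of 17 tested genes of p53 and its targets, 4 were higher and 0 lower, with a median of 0.19. They were Btg2, an antiproliferative gene that is also an immediate early gene (136 ± 18.5 CPM under IL6 shRNA1 against 63.0 ± 12.8 CPM in control, adjusted p = 0.00225), Ccng1, the gene of cyclin G1 (233 CPM under IL6 shRNA1 against 163 CPM in control, adjusted p = 0.0116), Ephx1, an epoxide hydrolase gene (16.7 CPM under IL6 shRNA1 against 11.6 CPM in control, adjusted p = 0.0385), and Cdkn1a, which encodes the cell cycle brake p21 (130 CPM under IL6 shRNA1 against 94.4 CPM in control, adjusted p = 0.0495). Btg2 and Ephx1 lie on chromosome 1, where 29.2% of tested genes were higher. Of 12 immediate early genes, which respond fast to handling of cells and tissue, 6 were higher, with summed levels of 759 to 987 CPM against 632 to 827 CPM in control; their part in the p53 list was not tested. Trp53 itself had a log2 fold change of -0.04 (adjusted p = 0.726).

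Over all 15064 genes tested, 5.62% were higher and 6.16% lower. Of 11 tested genes of the death receptor pathway, the route to cell death from outside the cell, 4 were higher and 1 was lower. Casp8, its initiator caspase, averaged 92.9 ± 3.73 CPM under IL6 shRNA1 and 74.0 ± 7.62 CPM in control libraries (SD, n = 5 each; adjusted p = 0.0213), and Cflar, the gene of its inhibitor c-FLIP, averaged 79.1 CPM under IL6 shRNA1 and 60.9 CPM in control libraries (adjusted p = 0.0387). Both lie on chromosome 1, where 29.2% of tested genes were higher and the median log2 fold change was 0.32. The log2 fold change was 0.33 for Casp8 and 0.38 for Cflar. Ripk3 (49.9 CPM under IL6 shRNA1 against 42.4 CPM in control libraries, adjusted p = 0.0486) and Mlkl (64.3 CPM under IL6 shRNA1 against 46.6 CPM in control libraries, adjusted p = 0.0287), which carry out necroptosis, were higher too. Tnfrsf1a, the gene of TNF receptor 1 on chromosome 6, was lower (204 CPM under IL6 shRNA1 against 249 CPM in control libraries, adjusted p = 0.0251). Its log2 fold change was -0.28. On chromosome 6 the median was -0.23, and 216 of 797 tested genes were lower. Of 7 genes of the apoptosome and caspases, Casp2 on chromosome 6 was lower (29.8 CPM under IL6 shRNA1 against 41.1 CPM in control libraries, adjusted p = 0.00778) and 6 were not called, and of 7 genes of the IAP list 0 were called, Birc3 having the smallest p (adjusted p = 0.0924).

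Regulators of the 10 genes were called one by one. Ddit3, the gene of the stress factor CHOP, was higher (15.8 CPM under IL6 shRNA1 against 11.3 CPM in control, adjusted p = 0.0321), 1 of 7 in the list of FOXO and ATF4 regulators. Btrc, which encodes a ubiquitin ligase subunit that targets MCL1, was lower (30.2 CPM under IL6 shRNA1 against 37.9 CPM in control, adjusted p = 0.024), 1 of 3 tested genes of MCL1 turnover, while Huwe1 was listed at 0 in every library, as were 574 of 933 protein-coding genes of the X chromosome. Rela, the gene of an NF-kB subunit, was lower (103 ± 3.80 CPM under IL6 shRNA1 against 120 ± 3.81 CPM in control, adjusted p = 0.0234), and the other 8 genes of the NF-kB list were not called. Btrc and Rela lie on chromosome 19, where 65 of 546 tested genes were lower and 22 higher. The median log2 fold change of that chromosome was -0.12. In the IL-6 and STAT3 list of 8, the kinase gene Pim1 was higher (50.9 CPM under IL6 shRNA1 against 31.7 CPM in control, adjusted p = 0.0286), the receptor gene Il6st was lower (279 CPM under IL6 shRNA1 against 374 CPM in control, adjusted p = 0.0238), and Stat3 was not called (312 CPM under IL6 shRNA1 against 336 CPM in control, adjusted p = 0.431). Of the 16 called genes of these lists, Bcl2l13, Casp2, Casp8, Ccng1 and Btg2 kept the call in each of the 10 omissions of a single library, and the other 11 in 1 to 5 of them. With the leukocyte score as a covariate 0 of the 81 passed in edgeR, and 12 had an unadjusted p under 0.05. Of all 15064 genes tested, 91 passed in that fit.

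Promoter windows of 300 bases were at hand for 9 of the 10 genes, 14 windows in all, from the RefSeq promoter table (GRCm38.p6). The STAT motif TTCNNNGAA, which reads the same on both strands, was in 0 of the 14, and in 8.3% of 32851 mouse windows. The p53 half-site was in the window of Bax and in none of the other 13, against 8.4% of all windows. The NF-kB motif GGGNNNNNCC, searched on both strands, was in 50.8% of all windows. It was in 10 of the 14, among them those of Bcl2, Mcl1, Bax and Bcl2a1b, and not in those of Bcl2a1a and Bcl2a1d. A match is a description of these letters in these windows and not a site, and the lack of one speaks only of these letters.

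Genes whose pattern over the 10 libraries was most like that of each called member were found by the root-mean-square difference of centred log2 CPM among 10880 tested genes with at least 5 CPM on average. Nearest to Bcl2 were Lgmn, a lysosomal protease gene (0.13 on the log2 scale), Lpcat2 (0.13) and Tbc1d9 (0.14). Fermt3, the gene of kindlin-3 (0.12), and Adap1 (0.13) were the second and the third nearest to Bcl2a1a. Nearest to Bcl2a1b were Gch1 (0.16), Arl11 (0.19) and Thy1 (0.19), and nearest to Pmaip1 were Grid1 (0.11), Lat2 (0.16) and Nectin4 (0.16).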

How the data were processed

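Total RNA was made into libraries with the NEBNext Ultra II kit, per the labels' protocols, and the submitters' processing notes name Trim Galore 0.6.6, STAR 2.7.0f, Subread 1.6.4 with featureCounts and the builds mm10 and GRCm38. The sources used here do not state the strand setting, annotation release, treatment of multi-mapping reads or FPKM tool. The authors deposited raw counts per gene (whole numbers, no normalization) and FPKM for 10 libraries, and each deposited FPKM value of the members equalled the count over a fixed length and the column total within a relative deviation of 4.1e-06. The members, the gene lists and the alternatives were chosen with earlier results of these data known.

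Counts were fitted in R 4.3.3 with edgeR 4.0.16 (filterByExpr by group with a minimum count of 10, TMM, estimateDisp, glmQLFit with robust=TRUE, glmQLFTest), intercept and group only, on all 15064 genes kept. P-values were adjusted by Benjamini-Hochberg over these, with calls at an adjusted p under 0.05. The same fit was run with the 3 Bcl2a1 copies added into 1 row. Single values were compared by exact two-sided permutation over 252 regroupings. FPKM values served for levels between genes, without a test. The code was tested on simulated counts. Alternatives were other scaling, filters, DESeq2 1.42.0, limma 3.58.1 (voom, and log2 FPKM with a pseudocount of 1 or 0.1), a block, a stricter threshold, a leukocyte covariate and omitted libraries.

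Named were all members, each called gene of the 12 pathway lists or otherwise the one with the smallest p, the 3 genes most alike to each called member (1 of those of Bcl2a1a is not reported here), and of the 10 marker lists the most abundant genes and those at or near 0. Genes near Bcl2, and Trp53, Stat3, Bcl2l10 and Bcl2a1c, were named outside this rule after their values were seen. The labels give 1 batch, and nothing says that the 5 libraries of a group came from separate cultures or animals, so p-values measure the spread between these libraries, which may be technical. Transcripts of GENCODE M21 gave coding sequences. Figures were drawn with matplotlib 3.10.9.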

Additional observations from a re-analysis of the deposited data

Results flagged for a closer look

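Of 36 groups of 5 libraries checked (the levels of the members and related values), 2 held a library far from the other 4, and chance gives about 1 in 20 groups. Both were IL6 shRNA1 library 1. Its Bcl2l1 level was 23.4 CPM, against 29.6 to 31.2 CPM in the other 4 libraries of its label. Its leukocyte score was -0.187 (log2), against 0.523 to 0.769 in the other 4.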

How the results depend on the processing

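Bcl2 was called in 22 of 23 alternatives, Pmaip1 in 21, Bcl2a1b in 16, Bcl2a1a in 12, Bcl2a1d in 3 and the other 5 members in 0. Of the 10 members 4 were called, 2 with the replicate number as a block, 1 at an adjusted p under 0.01 (Bcl2), 0 with the leukocyte covariate (2 at an unadjusted p under 0.05 in edgeR), 2 without the 3 farthest libraries, and 2 to 5 when 1 library was left out (2 without IL6 shRNA1 library 3 or 4 or control library 2). DESeq2 called 5. The A1 sum (1.07, log2) kept its direction throughout, with 1.12 under the block (adjusted p = 0.0883), 0.345 with the covariate, 0.792 without the 3 farthest libraries and 0.979 to 1.282 when 1 library was left out. Pathway genes called, 16 of 81, became 8 under the block, 3 at an adjusted p under 0.01, 8 on log2 FPKM with either pseudocount, 0 with the covariate, 1 without the 3 farthest libraries, and 5 to 24 when 1 library was left out. Bcl2 relative to chromosome 1 (0.65, log2) was 0.546 to 0.712 when 1 library was left out and 0.41 without the 3 farthest libraries, an alternative chosen after seeing the data. It was not fitted with the covariate. Direction turned with the covariate for Bcl2l1 (-0.088), Mcl1 (-0.022), Bax (-0.147) and Il6 (-0.513), none called in either fit, and for Bbc3 (-0.022 to 0.073 when 1 library was left out) without IL6 shRNA1 library 4 (-0.002) or control library 1 (-0.022) or 3 (-0.011). The cause of these shifts was not tested. All genes called, 1775, became 3027 in DESeq2, 755 under the block, 381 at an adjusted p under 0.01, 91 with the covariate, 212 without the 3 farthest libraries, and 864 to 2774 when 1 library was left out. Same-numbered libraries of the groups correlated at -0.282, -0.066, 0.114, 0.269 and -0.271 after removal of group means. Pairing by number was thus not seen, and so few values cannot show that it was absent. Bcl2a1b rests on 27 to 167 counts per library, which limits its precision.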
